A study of Mus musculus with 20 samples.

Results

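The myelin and oligodendrocyte lineage genes described here are 40 mouse genes chosen by symbol, from precursor markers to the proteins and lipid enzymes of compact myelin. All 40 were rows of the count table, which holds 12988 genes, and all 40 passed the filter on low counts. They comprise 2 precursor genes, 4 lineage transcription factors, 3 genes of maturing cells and 31 genes of myelin and mature oligodendrocytes. RNA was sequenced from the adBNST, the anterodorsal part of a bed nucleus in the forebrain, microdissected from brain slices. Mice were 7 to 9 weeks old at assignment and either stayed under control conditions or went through chronic variable mild stress (CVMS), a 6-week schedule of changing minor stressors whose last item, wet bedding, came 1 hour before tissue collection. The 4 groups, female control, female stressed, male control and male stressed, had 15 mice each, and tissue of 3 mice was pooled per library, which gave 5 libraries per group. All mice were killed under ketamine anaesthesia. The strain is not given in the sources used here. A pool averages over 3 mice, so the spread between libraries is that between pools.

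Oligodendrocytes arise from precursor cells that persist in the adult brain and divide under platelet-derived growth factor signalling. As they mature they pass through a short premyelinating stage and then wrap axons with a membrane rich in galactolipids and in a few abundant proteins. The transcription factors Sox10 and Olig2 mark the whole lineage, and Myrf switches on the myelin genes at the end of it. The bed nucleus of the stria terminalis lies in the forebrain beside myelinated fibre tracts, so a dissected block holds RNA from oligodendrocytes along with that of neurons, astrocytes, microglia and vessels.

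Promoter sequences of 4 members are shown because most members varied together from library to library while Cspg4 did so least, and because precursor and myelin genes can be set side by side at the sequence level. Each run is the 250 bases before a transcription start (for Mag, 1 of several), 5′ to 3′ on the gene's own strand, from RefSeq (GRCm38.p6). Capitals mark ACAAAG, a core bound by SOX factors, on either strand. They also mark CTGGNAC with C or T at N, a core bound by Myrf, on either strand.
Mag, chr7:30914923-30915172, minus strand: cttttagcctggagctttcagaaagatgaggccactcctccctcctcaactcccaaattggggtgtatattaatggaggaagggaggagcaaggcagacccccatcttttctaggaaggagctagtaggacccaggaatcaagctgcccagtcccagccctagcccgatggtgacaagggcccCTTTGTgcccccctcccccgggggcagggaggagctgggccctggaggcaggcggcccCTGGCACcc
Mog, chr17:37023399-37023648, minus strand: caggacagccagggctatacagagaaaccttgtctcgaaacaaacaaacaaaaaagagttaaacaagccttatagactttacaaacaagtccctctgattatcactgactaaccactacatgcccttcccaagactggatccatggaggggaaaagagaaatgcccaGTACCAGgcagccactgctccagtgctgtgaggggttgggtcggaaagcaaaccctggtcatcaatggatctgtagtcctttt
Opalin, chr19:41077114-41077363, minus strand: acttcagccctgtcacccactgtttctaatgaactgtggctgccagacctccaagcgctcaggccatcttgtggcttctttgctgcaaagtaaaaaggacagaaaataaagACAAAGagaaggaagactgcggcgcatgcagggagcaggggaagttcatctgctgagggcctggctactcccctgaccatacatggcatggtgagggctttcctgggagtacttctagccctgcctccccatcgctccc
Pdgfra, chr5:75152001-75152250, plus strand: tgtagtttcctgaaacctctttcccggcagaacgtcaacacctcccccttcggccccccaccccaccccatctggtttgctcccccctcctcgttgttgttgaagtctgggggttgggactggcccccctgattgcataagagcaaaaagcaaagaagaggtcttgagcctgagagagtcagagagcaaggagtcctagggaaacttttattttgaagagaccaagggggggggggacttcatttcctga
The windows of the 3 myelin genes hold 1 or 2 matches each, and the window of the precursor gene Pdgfra holds none. These windows are examples: of the 22 myelin and mature members with a window, 10 held a match of either core in at least 1 window and 12 held none, and 1 of the other Mag windows held none. Of the 5 other members with a window, 0 held a match. RefSeq windows were found for 27 of the 40 members. The SOX core lay in 8 of these 27 genes (29.6%), against 18.6% of 27025 genes with a window. The Myrf core lay in 5 of 27 genes (18.5%), against 6.79% of all. A match is a description of letters and not a measured binding site.

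Per length, several myelin membrane genes were among the most abundant transcripts of the tissue and the precursor genes were not. Levels are CPM (counts scaled by library size) divided by the length of all annotated exons in kb (GENCODE M21), as mean ± SD over the 20 libraries. Mbp, which holds the cytoplasmic faces of the myelin membrane together, reached 486 ± 80.99 CPM per kb, rank 14 of 12799 genes with a length. Mobp, another cytoplasmic myelin protein, followed at 210.5 ± 33.9 CPM per kb. The proteolipid Mal (158 ± 24.1) and Cnp (149 ± 20.7), which keeps cytoplasmic channels open, came next in CPM per kb and lay within their spread of each other. The tight junction protein Cldn11 stood at 136 ± 19.00 CPM per kb. At the low end stood Enpp6, a choline phosphodiesterase of newly formed oligodendrocytes, at 3.17 ± 0.631 CPM per kb. Cspg4, a chondroitin sulfate proteoglycan used here as a precursor gene, was the lowest member at 2.59 ± 0.252 CPM per kb, rank 10191. Pdgfra, a growth factor receptor used here as the other precursor gene, reached 9.10 ± 0.743 CPM per kb.

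Total counts per library ran from 2.71 M (mega counts) to 33.6 M, with a median of 15.6 M. The smallest count of any member in any library was 48, in the shallowest, female control 4. No marker of astrocytes, microglia, endothelial cells, neurons or striatal or thalamic neurons that was in the table was at 0 in all libraries of a group. Zeros in single libraries were not counted. Male controls were low in striatal neuron genes: the summed level of 14 such genes ran from 3624 to 4498 CPM in male controls, 3875 to 6763 CPM in female controls, 3762 to 7607 CPM in stressed females and 5118 to 7570 CPM in stressed males. Female stressed 2 stood apart in thalamic genes, with the highest score of the 20 libraries on 9 of 10 listed genes (0.53, a mean log2 CPM relative to all libraries). The part of either in the results on myelin genes was not tested, other than by the striatal covariate given beside the counts. In males that covariate cannot be separated from stress, because the summed levels of control and stressed animals did not overlap.

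The median member varied more between libraries of 1 group than the median gene, Sirt2 and Pdgfra varying less, and most members varied together. A score, the mean log2 CPM of the members relative to each gene's mean over the 20 libraries, spanned 0.77 on the log2 scale, a 1.71-fold range. It was lowest in male stressed 3 (-0.41), where 0 of 40 members exceeded their own mean, and highest in female control 3 (0.36), where 39 of 40 did. In female controls 4 and 5 and in male control 5 all 40 members exceeded their mean, while in male control 1 and female stressed 5 only 1 of 40 did. High and low libraries thus occurred inside groups: female controls 1 and 2 had 4 and 13 members above their mean. Group means of the score were 0.14 ± 0.21 (SD, n = 5) in female controls, -0.06 ± 0.10 in stressed females, -0.02 ± 0.22 in male controls and -0.06 ± 0.22 in stressed males, and the ranges of all 4 groups overlapped. In bulk tissue, fewer cells of a type and less RNA per cell cannot be told apart.

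**Figure D1:**
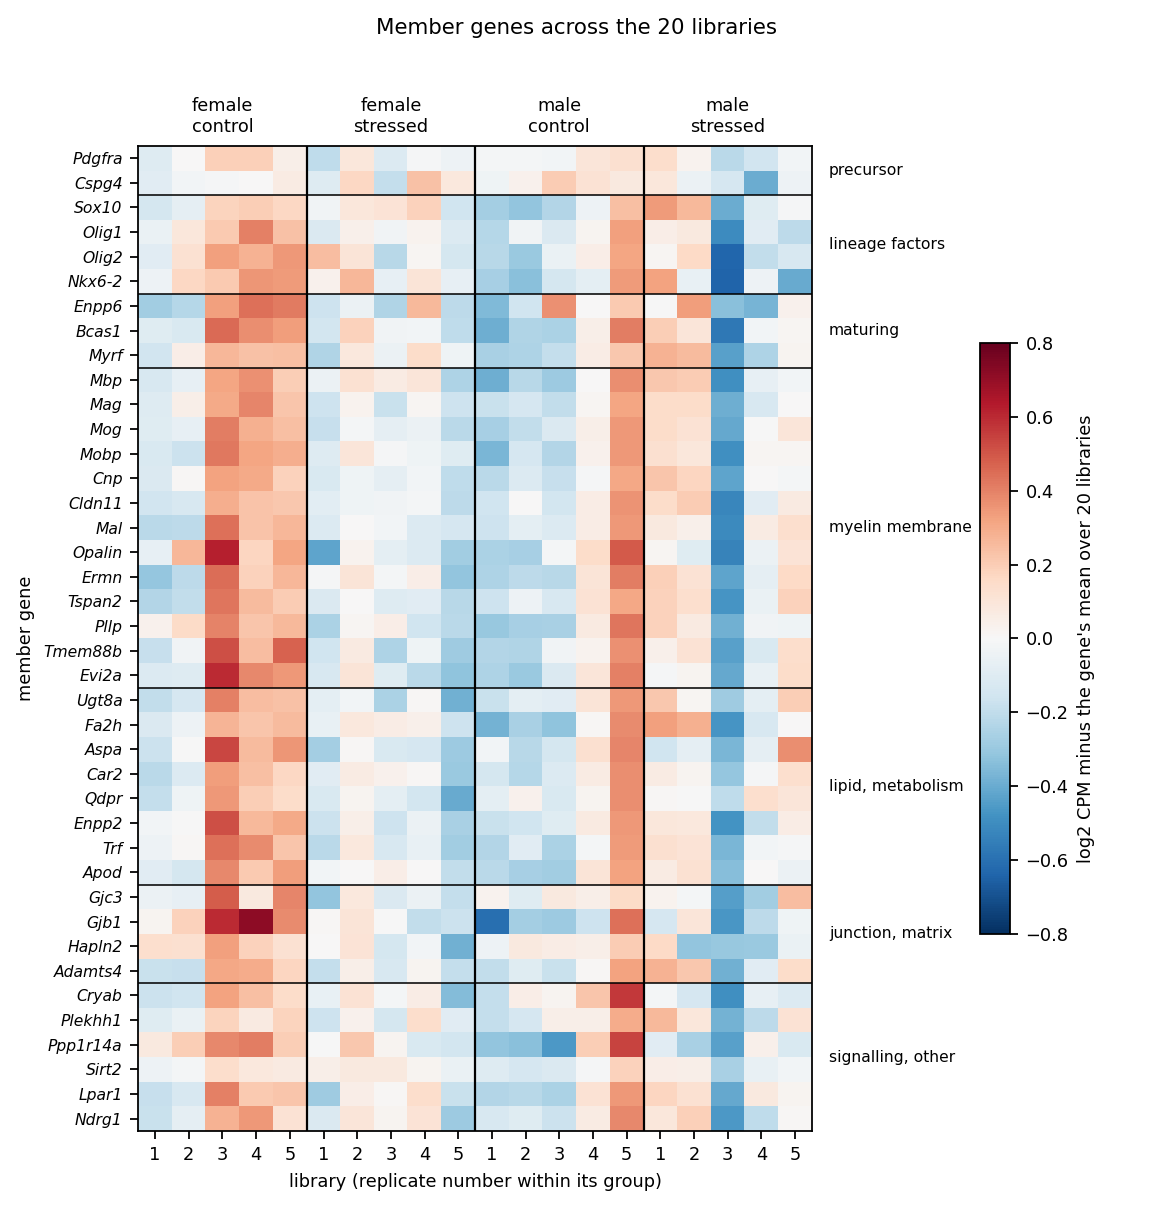
Log2 CPM of the 40 members (rows, by role) in the 20 libraries (columns, by group), each relative to the gene's mean over all libraries. Female controls 3 to 5 and male control 5 are high across nearly all rows and male stressed 3 is low across all 40, while Cspg4 follows these columns least.

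The stage groups are assignments by symbol, and which cells held each RNA was not determined in this bulk tissue. Among the stage groups, the 2 precursor genes varied least. The mature member Sirt2 varied less than either of them (within-group SD of log2 CPM 0.102, against 0.116 for Pdgfra and 0.138 for Cspg4). The precursor score spanned 0.40 (1.32-fold), from male stressed 4 to female stressed 2, against 0.80 (1.74-fold) for the 31 myelin and mature genes, 0.80 for the maturing genes and 0.85 for the lineage factors. The median within-group SD of log2 CPM was 0.13 for the 2 precursor genes, 0.22 for the lineage factors, 0.27 for the maturing genes and 0.22 for the myelin and mature genes, against 0.13 over all 12988 genes.

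**Figure D2:**
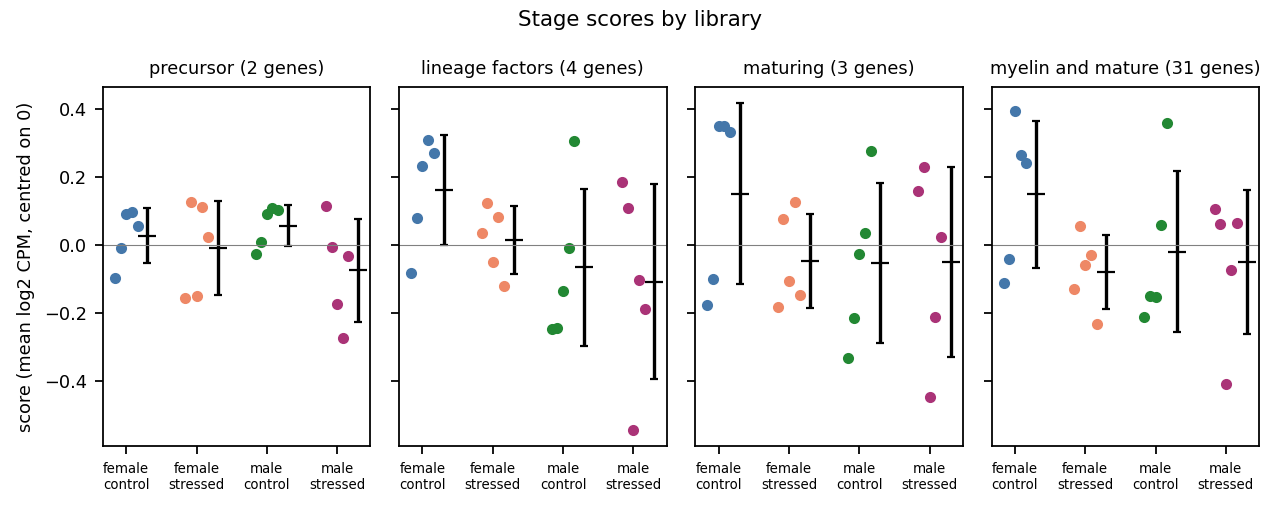
Score (mean log2 CPM relative to all libraries) of the precursor, lineage factor, maturing and myelin and mature members, with 1 point per library and the mean and SD of each group. The 4 groups overlap in every panel, and the precursor score has the narrowest range.

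Mog, a surface protein of the outermost myelin layer, served as an anchor to order all other genes by their correlation of log2 CPM over the 20 libraries. Of the 39 other members, 19 had Pearson's r above 0.9, which held for 0.354% of the 12987 other genes, and 37 of 39 were among the 500 genes with the highest r. Bcas1, placed here in the maturing group, had the highest r of any member (r = 0.964, Spearman's rho 0.968, each with a permutation p of 1e-05, the smallest 100000 permutations can give, adjusted p 0.000941 and 0.00137 over all genes). Its r was 0.951 without female control 3 and male control 5, the libraries farthest from the median of Mog, and 0.983 after each group's mean was removed. Pdgfra followed Mog less closely (r = 0.781, permutation p 7e-05, adjusted p 0.00356, rho 0.761, permutation p 0.00015, adjusted p 0.00654) and had r = 0.71 without these libraries. Cspg4 did not pass (r = 0.163, permutation p 0.494, adjusted p 0.697, rho 0.200, permutation p 0.394, adjusted p 0.632, and r = 0.152 without these libraries). Hapln2 had r = 0.570 (permutation p 0.00896, adjusted p 0.0690, rho 0.558, permutation p 0.0124, adjusted p 0.0863), and r = 0.407 without these libraries. A positive r with an adjusted p under 0.05 held for 6.16% of all genes. The points share dissections, library sizes and 1 normalization. The permutations exchanged libraries across the 4 groups. With each group's mean removed, r was 0.78 for Pdgfra, 0.29 for Cspg4 and 0.54 for Hapln2.

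Whether chronic stress changes these genes in females was asked by the comparison of 5 stressed with 5 control libraries. In stressed females 39 of the 40 members had a fitted log2 difference below 0, against 50.5% of all genes, and the median member stood at -0.20 against -0.00 for all genes. Most members varied together over the libraries, so their signs are not independent of each other, here and in the comparisons below. None passed the test: 0 of 40 were called at an adjusted p under 0.05 by edgeR, as were 0% of all genes, and DESeq2 and limma-voom also called 0 members. At an unadjusted p under 0.05, 15 members were lower and 0 higher, against 3.83% of all genes lower and 3.69% higher. All 15 belonged to the myelin and mature group: 7 of 13 membrane genes, 5 of 8 lipid and metabolic genes, 3 of 4 junction and matrix genes and 0 of 6 others. The precursor, lineage factor and maturing groups had 0 at this level, but hold only 2, 4 and 3 genes. Their median differences were -0.02, -0.15 and -0.17, against -0.23 for the myelin and mature group. A difference between these groups was not tested. The count of members at an unadjusted p under 0.05 was 4 without female control 3, 8 without female control 5 and 9 without female stressed 5. Female control 3 had the second-highest thalamic neuron score of the 20 libraries (0.34) and the lowest striatal neuron score of the female controls (-0.39). Female stressed 5 had the highest striatal neuron score (0.57) and the lowest astrocyte score (-0.17) of the 20 libraries. Microglial and endothelial markers were also mostly lower in the same comparison, and none passed the test. Below 0 were 10 of 11 microglial genes (2 at an unadjusted p under 0.05) and 7 of 10 endothelial genes (3 at this level). In controls against stressed, summed levels ran from 484 to 555 against 463 to 503 CPM for microglia. For endothelial genes they ran from 276 to 307 against 266 to 301 CPM, and for astrocytes from 5400 to 6045 against 5222 to 5555 CPM. Of astrocyte genes 7 of 11 were below 0 (1 at this level). Of general, striatal and thalamic neuron genes 6 of 10, 5 of 14 and 7 of 9 were below 0, with 0 at this level. The part of these genes and scores in the result was not tested.

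In males the same comparison gave a median of -0.05 against -0.01 for all genes, with 27 of 40 members below 0 (all genes 52.4%). By edgeR 0 of 40 were called, against 0.0077% of all genes, and DESeq2 and limma-voom also called 0. At an unadjusted p under 0.05, 3 were lower and 0 higher, against 6.76% of all genes lower and 8.71% higher. These were Hapln2, Cryab and the precursor gene Cspg4, and none of the 13 membrane genes was among them. The number below 0 was 10 without male control 5, 15 without male stressed 3 and 5 with the striatal neuron score as a covariate, and the number at an unadjusted p under 0.05 was 1 without either library and 0 with the covariate. The median of the members was 0.06 without male control 5, 0.04 without male stressed 3 and 0.14 with the covariate. The striatal neuron score ran from -0.51 to -0.19 in male controls and from -0.01 to 0.56 in stressed males, without overlap. The values with the covariate therefore cannot separate it from the male groups. All 14 striatal neuron genes were higher in stressed males at an unadjusted p under 0.05, with a median of 0.59, although 0 of them passed the adjusted threshold. Male stressed 3 had the second-highest striatal neuron score of the 20 libraries (0.56) and the lowest general neuron (-0.22) and thalamic neuron (-0.41) scores.

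**Figure D3:**
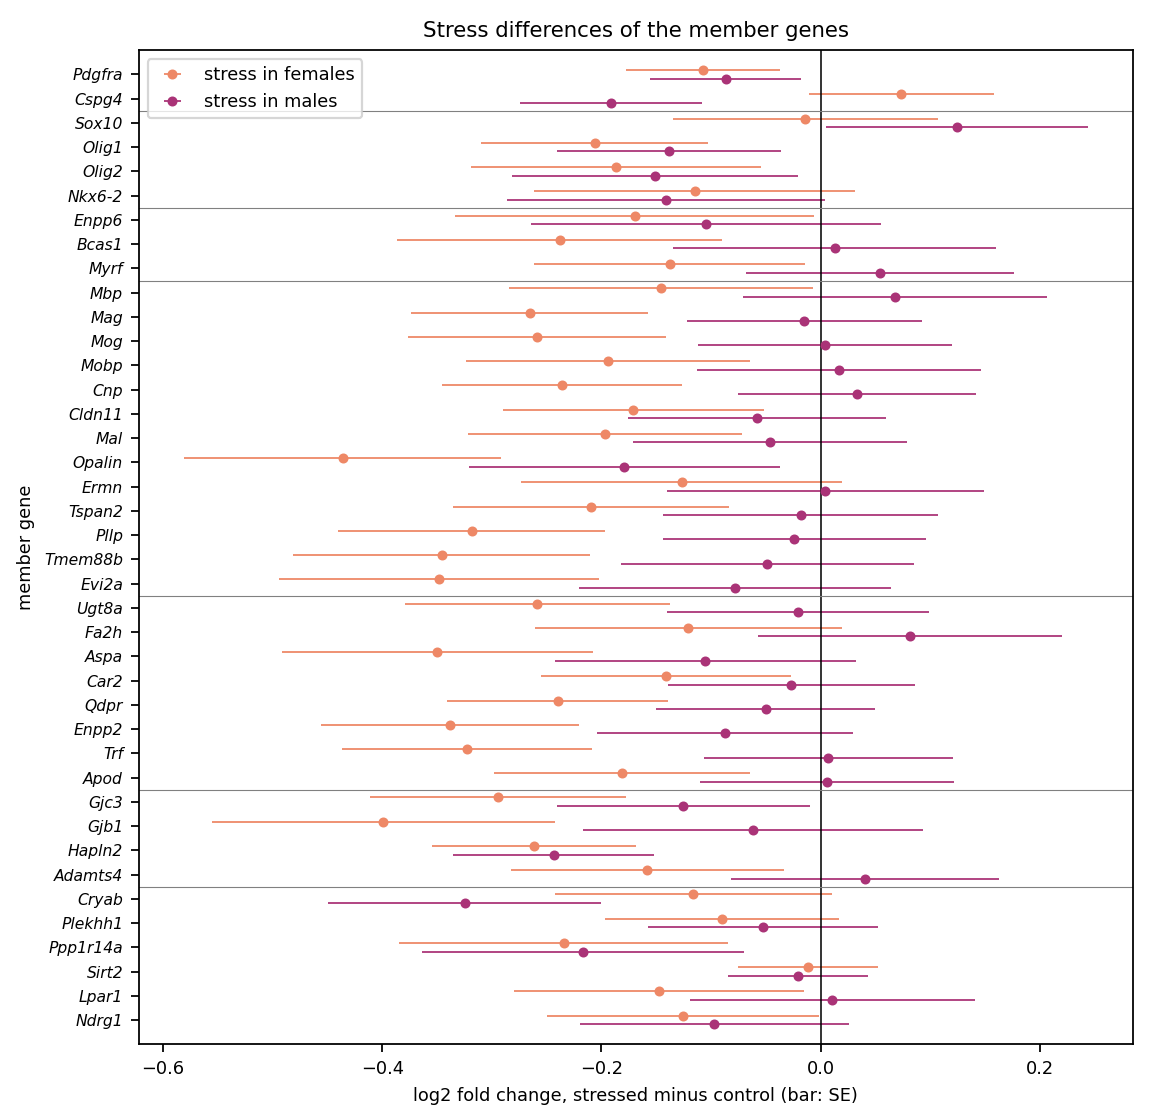
Log2 difference (stressed minus control) of each member in females and in males, with its SE, from the fit of all genes, ordered by role. In females 39 of 40 estimates lie below 0, Cspg4 being the exception, and in males the estimates lie on either side of 0. No estimate passed an adjusted p of 0.05.

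Control males and control females were compared next. Of the 40 members, 38 had a difference below 0, male minus female (all genes 49.9% below 0), with a median of -0.16 against 0.00 for all genes. As most members varied together, these are not 38 separate results. By edgeR 0 were called, against 0.747% of all genes, and DESeq2 and limma-voom also called 0. At an unadjusted p under 0.05, 2 were lower, Gjb1 and Trf, against 8.17% of all genes lower, and 0 were higher, against 7.08%. This count was 22 without male control 5 and with the striatal covariate, 10 without female control 1, 6 without female control 2, and 1 without each of the other 7 control libraries. Beside it, 14 of 14 striatal neuron genes were lower in control males, 13 at an unadjusted p under 0.05, as were 6 of 11 microglial and 4 of 10 endothelial genes at this level. One endothelial gene, the tight junction gene Cldn5, passed the test (-0.44, SE 0.08, adjusted p 0.0122 in edgeR), whereas no member did. This comparison shares its female controls with the stress comparison in females and its male controls with that in males.

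Stressed males and stressed females were compared in the same way. The median member stood at 0.02 against -0.00 for all genes, 17 of 40 were below 0 (all genes 50.1%), and 0 were called against 0.077% of all genes. None had an unadjusted p under 0.05 in edgeR, where 7.06% of all genes did, 0 did in DESeq2 and 2 did in limma-voom. The number below 0 was 10 without female stressed 4 and 9 without male stressed 3.

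The difference between the male and the female stress effect was tested directly as an interaction. It was above 0, that is, the stress difference was higher in males than in females, for 36 of 40 members (all genes 50.9%), with a median of 0.19 against 0.00 for all genes. These signs too are not independent, because most members varied together. By edgeR 0 were called, as were 0% of all genes, DESeq2 and limma-voom also called 0, and the stress effects were therefore not shown to differ between the sexes. Only Cspg4 had an unadjusted p under 0.05, against 10.4% of all genes. This count was 13 without male control 5, 8 without male stressed 3, 4 without female control 1, 16 with the striatal covariate, and it came to 0 without female stressed 4 or 5, male control 3 or 4, or male stressed 4. The members below 0 numbered 4 (all genes 49.1%), and 10 in limma-voom. Beside them, 11 of 11 microglial genes were above 0 in the interaction (median 0.18, 3 at an unadjusted p under 0.05), as were 10 of 10 endothelial genes (median 0.14, 3 at this level) and 14 of 14 striatal neuron genes (median 0.54, 11 at this level), and 0 of them passed the test. The part of microglial and endothelial genes in the result was not tested.

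The precursor genes had stress differences of opposite sign in females and of the same sign in males, none of which passed the test. Pdgfra stood at 84.6, 91.04, 104, 104 and 93.9 CPM in female controls 1 to 5 and at 78.8, 96.6, 84.1, 90.2 and 88.5 CPM in stressed females. In males Pdgfra stood at 89.96, 89.7, 89.7, 97.2 and 99.4 CPM in controls 1 to 5 and at 100.1, 92.9, 78.3, 81.6 and 89.5 CPM in stressed animals. The female control values reached highest, in libraries 3 and 4, and stressed and control libraries overlapped in both sexes. Cspg4 stood at 28.9, 30.3, 30.6, 30.9 and 32.2 CPM in female controls 1 to 5 and at 28.6, 34.5, 26.96, 36.3 and 32.6 CPM in stressed females. In males Cspg4 stood at 30.01, 31.5, 35.4, 33.4 and 32.4 CPM in controls 1 to 5 and at 32.7, 29.8, 28.05, 23.4 and 29.9 CPM in stressed animals. The lowest value was that of male stressed 4, and stressed females reached both above and below the controls. Means of Cspg4 were 32.6 ± 2.04 CPM in control males and 28.8 ± 3.45 CPM in stressed males (SD, n = 5), a log2 difference of -0.19 (SE 0.08, adjusted p 0.264) with an unadjusted p of 0.0312. In females its difference was 0.07 (SE 0.08, adjusted p 0.880), the only one above 0. The interaction for Cspg4 was -0.26 (SE 0.12, adjusted p 0.449), with an unadjusted p of 0.0359, and between stressed males and females it was -0.17 (SE 0.08, adjusted p 0.707). For Pdgfra the stress differences were -0.11 (SE 0.07, adjusted p 0.754) in females and -0.09 (SE 0.07, adjusted p 0.596) in males.

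Of 9 further precursor genes on a list of such genes, all were in the table and 0 passed in any comparison. In stressed males 6 of 9 were below 0 (all genes 52.4%), 2 of them at an unadjusted p under 0.05 (all genes 6.76% lower). In stressed females 4 of 9 were below 0 (all genes 50.5%), 1 at this level (all genes 3.83% lower). Pcdh15, a protocadherin of precursors, had the smallest p of the list in males, -0.40 (SE 0.12, adjusted p 0.123), and differed by 0.09 (SE 0.12, adjusted p 0.918) in females, with an interaction of -0.49 (SE 0.17, unadjusted p 0.0105, adjusted p 0.354). Lhfpl3 differed by -0.18 (SE 0.07, adjusted p 0.617) in females and -0.19 (SE 0.07, adjusted p 0.217) in males.

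Among the lineage factors, Sox10, which acts from precursor to mature cell, had overlapping values in the female groups. Sox10 stood at 75.9, 79.5, 94.4, 95.6 and 93.8 CPM in female controls 1 to 5 and at 81.95, 89.1, 90.1, 95.00 and 74.8 CPM in stressed females. In males Sox10 stood at 69.1, 67.1, 70.9, 81.3 and 98.7 CPM in controls 1 to 5 and at 106, 99.9, 63.4, 78.2 and 82.96 CPM in stressed animals. Male stressed 1 was the highest and male stressed 3 the lowest of all libraries, so stressed males spanned the whole range. The stress difference of Sox10 was -0.01 (SE 0.12, adjusted p 0.999) in females and 0.12 (SE 0.12, adjusted p 0.684) in males. Olig2 stood at 34.9, 40.6, 46.8, 45.2 and 47.4 CPM in female controls 1 to 5 and at 44.1, 39.98, 31.9, 37.6 and 33.7 CPM in stressed females. In males Olig2 stood at 31.9, 30.3, 35.9, 38.6 and 46.4 CPM in controls 1 to 5 and at 37.7, 41.6, 23.9, 32.5 and 34.1 CPM in stressed animals. Female controls 3 to 5 and male control 5 were high, male stressed 3 was low, and the groups overlapped. Olig2 differed with stress by -0.19 (SE 0.13, adjusted p 0.764) in females and -0.15 (SE 0.13, adjusted p 0.637) in males, and its partner Olig1 by -0.21 and -0.14. Nkx6-2 stood at 14.6, 16.8, 17.4, 19.2 and 18.98 CPM in female controls 1 to 5 and at 15.4, 18.01, 14.3, 16.1 and 14.3 CPM in stressed females. In males Nkx6-2 stood at 12.5, 11.8, 13.6, 14.2 and 19.04 CPM in controls 1 to 5 and at 18.8, 14.3, 9.57, 14.6 and 11.3 CPM in stressed animals. Its lowest value was again male stressed 3 and its highest female control 4. Nkx6-2, a homeobox factor of myelinating cells, differed between stressed males and females by -0.24 (SE 0.14, adjusted p 0.755), and the range of stressed males enclosed that of stressed females.

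The score of the 3 maturing members spanned about as wide a range as that of the myelin members, whereas a score of 10 further maturing genes spanned 0.38 (1.30-fold). Scores of the other further lists were also narrower than those of the members. That of 22 further myelin genes spanned 0.47 (1.39-fold) and that of 9 further precursor genes 0.23 (1.17-fold). Enpp6 stood at 16.4, 17.04, 25.1, 27.1 and 26.7 CPM in female controls 1 to 5 and at 17.8, 19.4, 16.9, 23.9 and 17.3 CPM in stressed females. In males Enpp6 stood at 15.6, 17.9, 25.8, 20.001 and 23.1 CPM in controls 1 to 5 and at 19.96, 25.2, 15.8, 15.4 and 20.4 CPM in stressed animals. Female controls 3 to 5, male control 3 and male stressed 2 were the high ones, and female controls 1 and 2 lay below at least 4 of the 5 stressed females. Enpp6 differed by -0.17 (SE 0.16, adjusted p 0.844) in stressed females and -0.10 (SE 0.16, adjusted p 0.842) in stressed males. Bcas1 stood at 231, 227, 338, 320.0 and 311 CPM in female controls 1 to 5 and at 223, 280.4, 242, 243 and 215 CPM in stressed females. In males Bcas1 stood at 188, 209, 207, 255 and 327 CPM in controls 1 to 5 and at 283, 265, 166, 243 and 249 CPM in stressed animals. For this gene, whose protein marks cells that have just begun to myelinate, the same female controls 3 to 5 and male control 5 were high. Bcas1 differed by -0.24 (SE 0.15, adjusted p 0.742) with stress in females, 0.01 (SE 0.15, adjusted p 0.993) in males and -0.25 (SE 0.15, adjusted p 0.439) between control males and females. Myrf stood at 116, 134, 156, 152 and 153 CPM in female controls 1 to 5 and at 109.6, 137, 125, 143 and 126 CPM in stressed females. In males Myrf stood at 108, 109, 113, 135 and 150.0 CPM in controls 1 to 5 and at 157, 154, 95.6, 109 and 132 CPM in stressed animals. Male stressed 1 was highest and male stressed 3 lowest, with overlap in both sexes. The differences of Myrf were -0.14 (SE 0.12, adjusted p 0.827) in stressed females and 0.05 (SE 0.12, adjusted p 0.914) in stressed males. Of 11 further maturing genes listed, 10 were in the table and 1 was not analysed here. None passed, and Neu4, a sialidase, had the smallest p in males, -0.28 (SE 0.08, unadjusted p 0.00223, adjusted p 0.109), against -0.03 (SE 0.09) in females. Stressed males lay below control males without overlap for 3 of the 10, which held for 1.16% of all genes. Besides Neu4 these were Tcf7l2 (-0.28, adjusted p 0.520), which is also on the list of thalamic neuron genes, and Zfp488 (-0.16, adjusted p 0.388), both named after their values were seen.

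Myelin membrane genes held the highest levels. Mbp stood at 3711, 3887, 5045, 5231 and 4663 CPM in female controls 1 to 5 and at 3938, 4419, 4250.3, 4338 and 3424 CPM in stressed females. In males Mbp stood at 3092, 3487, 3320.1, 4078 and 5266 CPM in controls 1 to 5 and at 4718, 4684, 2896, 3874 and 4001 CPM in stressed animals. Male control 5 and female controls 3 and 4 were highest and male stressed 3 was lowest. Mbp differed with stress by -0.15 (SE 0.14, adjusted p 0.843) in females and 0.07 (SE 0.14, adjusted p 0.899) in males. Mobp stood at 1310.2, 1263, 1907, 1773 and 1742 CPM in female controls 1 to 5 and at 1327, 1519.8, 1412, 1391 and 1333 CPM in stressed females. In males Mobp stood at 1107, 1295, 1209, 1461 and 1811 CPM in controls 1 to 5 and at 1558, 1516, 1015, 1441 and 1438 CPM in stressed animals. Stressed females lay close together, inside the range of their controls. Mobp means were 1599 ± 292 CPM in control and 1397 ± 77.9 CPM in stressed females, a log2 difference of -0.19 (SE 0.13, adjusted p 0.754), and the male difference was 0.02 (SE 0.13, adjusted p 0.990).

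Cnp stood at 496, 542, 672, 663 and 612 CPM in female controls 1 to 5 and at 495, 527, 513, 529 and 467 CPM in stressed females. In males Cnp stood at 464, 499, 474, 534 and 668 CPM in controls 1 to 5 and at 629, 605, 402, 539.6 and 532 CPM in stressed animals. All 5 stressed females lay under female controls 2 to 5, and only female control 1 was as low. The mean of Cnp was 597 ± 76.6 CPM in control and 506 ± 25.9 CPM in stressed females, -0.24 (SE 0.11, adjusted p 0.658) on the log2 scale with an unadjusted p of 0.0417, against 0.03 (SE 0.11, adjusted p 0.957) in males. Mag stood at 232, 258, 309, 327 and 291 CPM in female controls 1 to 5 and at 222, 255, 220.5, 252 and 223 CPM in stressed females. In males Mag stood at 221, 227, 218, 252 and 310.4 CPM in controls 1 to 5 and at 276, 276, 191, 229 and 250.5 CPM in stressed animals. Female control 1 fell among the stressed females, and the other female controls lay above all of them, female control 2 only just. Mag, which sits on the membrane facing the axon, differed by -0.27 (SE 0.11, adjusted p 0.617) in stressed females, with an unadjusted p of 0.0220, and by -0.01 (SE 0.11, adjusted p 0.990) in stressed males. Mog stood at 77.8, 79.2, 110.5, 101 and 98.04 CPM in female controls 1 to 5 and at 73.1, 82.2, 79.00, 80.4 and 71.5 CPM in stressed females. In males Mog stood at 69.1, 72.5, 76.7, 85.7 and 106 CPM in controls 1 to 5 and at 91.96, 90.1, 62.6, 82.8 and 89.01 CPM in stressed animals. Again female controls 1 and 2 overlapped the stressed females while 3 to 5 lay above. Mog differed by -0.26 (SE 0.12, adjusted p 0.649) in females, with an unadjusted p of 0.0384, by 0.00 (SE 0.12, adjusted p 0.996) in males, and by 0.26 (SE 0.17, adjusted p 0.587) in the interaction.

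**Figure D4:**
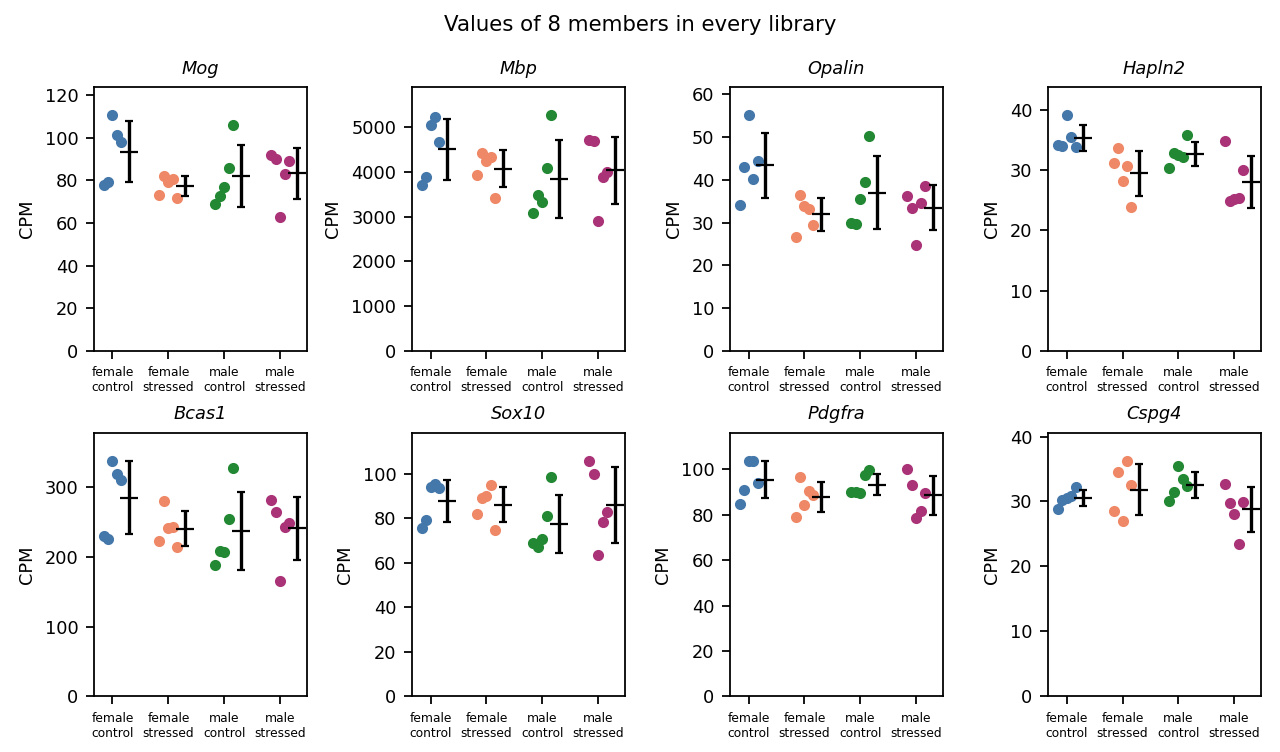
CPM of Mog, Mbp, Opalin, Hapln2, Bcas1, Sox10, Pdgfra and Cspg4, 1 point per library with the group mean and SD. For Mog, Mbp, Bcas1 and Sox10 female controls 1 and 2 lie below female controls 3 to 5, and male stressed 3 is the lowest point for all of these genes except Hapln2 and Cspg4.

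Opalin stood at 34.1, 42.97, 55.1, 40.3 and 44.5 CPM in female controls 1 to 5 and at 26.7, 36.5, 33.9, 33.1 and 29.5 CPM in stressed females. In males Opalin stood at 30.01, 29.7, 35.4, 39.5 and 50.3 CPM in controls 1 to 5 and at 36.2, 33.5, 24.7, 34.6 and 38.5 CPM in stressed animals. All stressed females lay below female controls 2 to 5, and the overlap rested on female control 1. Opalin, a glycoprotein of mature oligodendrocytes whose promoter is printed with those of Mag and Mog, had the smallest p of the members in stressed females: its mean was 43.4 ± 7.65 CPM in controls and 31.9 ± 3.88 CPM in stressed animals, a difference of -0.44 (SE 0.14, adjusted p 0.570) with an unadjusted p of 0.00637. Over the alternatives its difference ran from -0.45 to -0.40, and with each library left out from -0.53 to -0.32. In males Opalin differed by -0.18 (SE 0.14, adjusted p 0.594). The other membrane genes at an unadjusted p under 0.05 in stressed females were Evi2a (-0.35), Tmem88b (-0.35) and the proteolipid Pllp (-0.32), against -0.08, -0.05 and -0.02 in males. Cldn11, Mal, the tetraspanin Tspan2 and the cytoskeletal Ermn stood between -0.21 and -0.13 in females and between -0.06 and 0.00 in males.

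Of 23 further myelin genes listed, 22 were in the table and 1 was not analysed here. In stressed females 16 of 22 were below 0 (all genes 50.5%), 6 of them at an unadjusted p under 0.05 (all genes 3.83% lower). None was above 0 at this level (all genes 3.69%). In stressed males 11 of 22 were below 0 (all genes 52.4%). There 0 reached an unadjusted p under 0.05, against 6.76% of all genes lower and 8.71% higher. St18, a zinc finger factor, had the smallest p of the list in the interaction, 0.45 (SE 0.17, unadjusted p 0.0120, adjusted p 0.362). None of the 22 passed in any comparison.

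Genes of lipid synthesis and metabolism were all below 0 in stressed females (all genes 50.5%), with a median of -0.25, and 5 of 8 below 0 in stressed males (all genes 52.4%). Enpp2 stood at 271, 274, 393, 329 and 340.2 CPM in female controls 1 to 5 and at 244, 285, 245, 266 and 229.9 CPM in stressed females. In males Enpp2 stood at 244, 246, 257, 289 and 349.7 CPM in controls 1 to 5 and at 294, 292, 197, 240.1 and 287 CPM in stressed animals. Stressed females overlapped their controls through female stressed 2. Enpp2, the secreted enzyme autotaxin, averaged 322 ± 50.8 CPM in control and 254 ± 21.4 CPM in stressed females, -0.34 (SE 0.12, adjusted p 0.574), with an unadjusted p of 0.00881, and differed by -0.09 (SE 0.12, adjusted p 0.804) in males. Trf stood at 376, 389.8, 525, 504 and 452 CPM in female controls 1 to 5 and at 334, 411, 354, 373 and 319.9 CPM in stressed females. In males Trf stood at 329, 364, 325, 384 and 491 CPM in controls 1 to 5 and at 423, 417, 300.3, 382 and 386 CPM in stressed animals. Female controls 3 to 5 and male control 5 were the high libraries. Trf, the iron carrier transferrin, differed by -0.32 (SE 0.11, adjusted p 0.584) in stressed females, 0.01 (SE 0.11, adjusted p 0.995) in stressed males, -0.24 (SE 0.11, adjusted p 0.315) between control males and females, and 0.33 (SE 0.16, adjusted p 0.488) in the interaction (unadjusted p 0.0525).

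Also at an unadjusted p under 0.05 in stressed females were Aspa (-0.35), which cleaves N-acetylaspartate, Ugt8a (-0.26), which makes galactocerebroside, and Qdpr (-0.24), which recycles tetrahydrobiopterin. In males these stood at -0.11, -0.02 and -0.05. The lipid carrier Apod (-0.18), the carbonic anhydrase Car2 (-0.14) and the fatty acid hydroxylase Fa2h (-0.12) did not reach this level in females.

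Junction and matrix genes included the member with the least overlap between stressed and control females. Hapln2 stood at 34.1, 33.9, 39.1, 35.4 and 33.8 CPM in female controls 1 to 5 and at 31.1, 33.6, 28.1, 30.7 and 23.8 CPM in stressed females. In males Hapln2 stood at 30.2, 32.8, 32.4, 32.1 and 35.8 CPM in controls 1 to 5 and at 34.7, 24.9, 25.2, 25.3 and 29.9 CPM in stressed animals. Every stressed female library lay below every control one, female stressed 2 by the smallest margin, whereas in males 1 stressed library lay within the controls. Hapln2, which links hyaluronan to proteoglycans at nodes of Ranvier, averaged 35.3 ± 2.21 CPM in control and 29.5 ± 3.71 CPM in stressed females, -0.26 (SE 0.09, adjusted p 0.597), with an unadjusted p of 0.0102. In males the means were 32.7 ± 2.02 and 28.00 ± 4.30 CPM, -0.24 (SE 0.09, adjusted p 0.196), with an unadjusted p of 0.0145, and with the striatal covariate the male difference was -0.05 (adjusted p 0.963). That covariate did not overlap between the male groups. The interaction of Hapln2 was 0.02 (SE 0.13, adjusted p 0.998). It was the only member of 40 whose groups did not overlap in females, which held, in the lower direction, for 0.562% of all genes.

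Gjb1 stood at 17.7, 19.8, 26.4, 28.6 and 22.6 CPM in female controls 1 to 5 and at 17.5, 18.7, 17.3, 15.2 and 15.4 CPM in stressed females. In males Gjb1 stood at 11.4, 14.4, 14.2, 15.5 and 23.6 CPM in controls 1 to 5 and at 15.8, 18.6, 12.6, 15.03 and 17.02 CPM in stressed animals. Female controls 3 and 4 were highest, and male control 5 lay well above the other male controls. Gjb1, an X-linked connexin of oligodendrocyte gap junctions, was the only member on the X chromosome. Its mean level was 23.02 ± 4.52 CPM in control females against 15.8 ± 4.60 CPM in control males, -0.44 (SE 0.16, adjusted p 0.179) (male minus female), with an unadjusted p of 0.0106. Without male control 5 this was -0.67 with an adjusted p of 0.0208, the only call on any member in any comparison or alternative, and the adjusted p ranged from 0.0777 to 0.306 over the alternatives with all libraries. With stress Gjb1 differed by -0.40 (SE 0.16, adjusted p 0.609) in females (unadjusted p 0.0182) and -0.06 (SE 0.16, adjusted p 0.928) in males. The connexin Gjc3 differed by -0.29 in stressed females (unadjusted p 0.0194) and -0.13 in males, and the aggrecan-cleaving protease Adamts4 by -0.16 and 0.04.

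The remaining 6 members, of varied roles, had a median difference of -0.12 in stressed females and 0 at an unadjusted p under 0.05. Cryab stood at 89.9, 90.9, 127, 120.1 and 112 CPM in female controls 1 to 5 and at 97.5, 110.1, 100.5, 106 and 79.9 CPM in stressed females. In males Cryab stood at 88.99, 105, 103, 118 and 150.1 CPM in controls 1 to 5 and at 100.5, 92.4, 72.2, 97.1 and 94.1 CPM in stressed animals. Male control 5 was highest and male stressed 3 lowest, and male control 1 fell inside the stressed range. Cryab, a small heat shock protein, averaged 113 ± 23.1 CPM in control and 91.3 ± 11.1 CPM in stressed males, -0.32 (SE 0.12, adjusted p 0.204), with an unadjusted p of 0.0161, and differed by -0.12 (SE 0.13, adjusted p 0.868) in females. The male difference of Cryab was -0.20 without male control 5 and -0.12 with the striatal covariate (adjusted p 0.918), which did not overlap between the male groups. Sirt2, a tubulin deacetylase of myelin, varied least of all members (within-group SD of log2 CPM 0.102) and differed by -0.01 (SE 0.06, adjusted p 0.999) in stressed females and -0.02 (SE 0.06, adjusted p 0.950) in stressed males. Ppp1r14a, an inhibitor of myosin phosphatase, stood at -0.23 and -0.22, Plekhh1 at -0.09 and -0.05, the lysophosphatidic acid receptor Lpar1 at -0.15 and 0.01, and Ndrg1 at -0.13 and -0.10 in stressed females and males.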

How the data were processed

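Per the labels' protocols, adBNST tissue of 3 mice was pooled per sample and libraries came from a stranded mRNA kit. The authors deposited whole-number counts per gene symbol, not normalized. STAR, featureCounts and mm10 are named in the submitters' processing notes, while versions, annotation and strand setting are not given in the sources used here. The lowest row total was 1002, so rarer genes were not analysed here.

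Counts were fitted with edgeR 4.0.16 (TMM, filterByExpr, which kept all 12988 genes, 1 mean per group, quasi-likelihood test) in R 4.3.3. P-values are two-sided and Benjamini-Hochberg adjusted over all genes, and a gene was called under 0.05. Scores use log2 CPM with a prior count of 2. The biological coefficient of variation was 8.83%. The pipeline was run on simulated counts with planted changes in stressed males that were larger than any member difference. That run does not measure sensitivity to differences as small as those of the members. Exon lengths covered 12799 genes. The members and gene lists were chosen with earlier results of these data known. Values in every library are given for 12 members chosen by role and for the 2 with the smallest p in each comparison, and the other members by single values, ranges and counts. From each further list only genes with the smallest p in a comparison are named, and some genes that this rule or the ranking by correlation picked are not reported here. Alternatives were DESeq2 1.42.0, its size factors in edgeR, limma-voom (limma 3.58.1), other filters, only the groups compared, the replicate block, a striatal covariate, a prior count of 0.5 and leaving out each library.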

Additional observations from a re-analysis of the deposited data

Results flagged for a closer look

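In 96 groups of 5 libraries (members with values in every library, and the scores), 2 had a lowest or highest library whose gap to the nearest other exceeded the 95% critical share of the group's range, and chance alone gives about 1 in 20. Both rested on male stressed 3. Mobp stood there at 1015 CPM, against 1438 to 1558 CPM in the other stressed males, a gap of 0.779 of the range. Cryab stood there at 72.2 CPM, against 92.4 to 100.5 CPM, a gap of 0.716 of the range. The same library had the lowest score of the members, of 9 thalamic neuron genes (-0.41) and of 10 general neuron genes (-0.22), and the second-highest score of 14 striatal neuron genes (0.56, next to female stressed 5 at 0.57), and its total of 29.0 M (mega) counts was among the higher ones.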

How the results depend on the processing

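The only call on a member in any setting, Gjb1 between control males and females, appeared without male control 5 (log2 difference -0.67). With each library left out, the difference in the score of all members ran from -0.27 to -0.15 for stress in females, -0.08 to 0.05 for stress in males, -0.26 to -0.11 for sex in controls, -0.04 to 0.10 for sex in stressed and 0.12 to 0.26 for the interaction, so that it took either sign for stress in males and for sex in stressed. Counts of members called were 0 in every other setting, with a leave-one-out range of 0 to 1 in that comparison and 0 to 0 in the others. With the striatal covariate, the members at an unadjusted p under 0.05 numbered 0 for stress in males, 22 for sex in controls, 2 for sex in stressed and 16 for the interaction, and the members below 0 numbered 5 for stress in males and 2 for the interaction. The striatal score did not overlap between control and stressed males, so in the comparisons that use both groups it cannot be separated from stress. For stress in females the member median was -0.18 with the covariate and -0.20 without it. For sex in stressed mice the count at an unadjusted p was 1 with DESeq2 size factors, 1 with a mean of at least 10 CPM and 2 in limma-voom. For the interaction it was 2 in DESeq2, 2 in limma-voom and 0 with the replicate block, and 10 members were below 0 in limma-voom. The cause was not tested. With each library left out, members at an unadjusted p under 0.05 ran from 4 to 19 for stress in females, 1 to 3 for stress in males, 1 to 22 for sex in controls, 0 to 2 for sex in stressed and 0 to 13 for the interaction, and members below 0 from 37 to 39, 10 to 37, 31 to 39, 9 to 23 and 2 to 10. Over all genes, DESeq2 called 1, 239, 248, 14 and 22 genes in these 5 comparisons, limma-voom 0, 1, 63, 11 and 0, and edgeR 0, 1, 97, 10 and 0. A fit of only the groups compared called 303 for stress in males and 304 for sex in controls.

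Replicate numbers are shared by the groups but the labels tie them to no litter or day. Over 30 same-numbered pairs the correlation of deviations ran from -0.47 to 0.24, with a median of -0.01 and 5 above 0.1, and 0 of 20 libraries correlated best with their own number. These correlations cannot show whether same-numbered samples share a litter or day. With the replicate block the count at an unadjusted p was 13 for stress in females and 0 for the interaction, and 48 genes were called for sex in controls. Depth ran from 2.71 M to 33.6 M counts, and Gjb1, Nkx6-2 and Ppp1r14a, the members of lowest CPM, are the least precise in female control 4.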

Other observations

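Genes outside the 40 members also tracked Mog over the 20 libraries. They were chosen after their values were seen. Of the 12 genes with the highest Pearson's r, 6 were members and 6 were not. Gatm, which makes the creatine precursor guanidinoacetate, had the highest r of all 12987 genes (r = 0.968, Spearman's rho 0.967, each with a permutation p of 1e-05, the smallest possible, and adjusted p 0.000941 and 0.00137). Il33, a nuclear cytokine, followed at r = 0.958 (rho 0.929), and the receptor Gpr37 at r = 0.953 (rho 0.968), with the same p-values. Septin4 (r = 0.948) and Rnf13 (r = 0.948) were also among them. Without female control 3 and male control 5, r was 0.952 for Gatm, 0.940 for Il33, 0.945 for Gpr37, 0.924 for Septin4 and 0.924 for Rnf13. With each group's mean removed, r was 0.962 for Gatm and 0.955 for Il33.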
